A study of Bos taurus with 60 samples.

Results

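Levels of 5 genes of mitosis and its control were followed in bovine mammary tissue from late lactation through the dry period. The genes were BUB1B, NEK2, CKS2, FOXM1 and ARHGAP11A. They were taken as named and found by their gene symbols, each of which is paired with a single locus of the count tables in the supplementary tables of the study. All 5 were found, among 25223 loci, and all 5 passed the filter on low counts that kept 14714 loci for testing. The study had listed each of them among the genes that differed between D7 and D3. A difference between these time points in the same libraries is therefore a description of chosen genes and no independent evidence of its direction. Other comparisons with D3 or D7 share samples with that choice and are not free of it.

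Mammary biopsies came from 12 multiparous Holstein cows, each biopsied 3 days before dry-off, the day on which milking stopped (D-3), and 3, 7, 14 and 25 days after it (D3 to D25). From dry-off, 6 cows were cooled (CL) under shade with fans and soakers, and 6 were heat-stressed (HT) under shade alone. D-3 is late lactation and precedes the treatments. The tissue was whole mammary gland trimmed of visible fat and was not sorted into cell types. A lower level can therefore come from fewer cells of a type or from less RNA per cell, and bulk samples cannot tell these apart. The cow is the biological replicate, with n = 12 per time point and n = 6 per treatment and time point.

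The cell cycle copies DNA in S phase and divides the chromosomes in mitosis. FOXM1 is a transcription factor that drives genes of the G2 phase and of mitosis. BUB1B encodes BUBR1, a kinase-like protein of the spindle assembly checkpoint, which holds the cell before anaphase until each chromosome is attached to the spindle. NEK2 is a kinase that separates the centrosomes at the start of mitosis. CKS2 is a small protein that binds cyclin-dependent kinases and helps them recognize their substrates. ARHGAP11A is a GTPase-activating protein for RhoA, the GTPase that forms the cleavage furrow. The non-lactating gland of the cow first involutes and then regrows secretory epithelium before calving, and in the mammary gland cell division is the means of that regrowth.

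Total counts ranged from 20525083 to 26183990 per library. Levels are given as CPM, counts scaled to library size, after TMM correction of that size, and values are mean ± SD over cows unless a range is given. A gene was called when its Benjamini-Hochberg FDR in edgeR's quasi-likelihood F-test was at most 0.05. Libraries that stand apart touch several results. In 5 of the 12 samples of D-3 the milk protein genes CSN1S1, CSN2 and LALBA took 40.2% to 49.8% of counts, and in the other 7 they took 0.19% to 8.03%. The D14 and D25 libraries of HT cow 8513 correlated with the 3 earlier libraries of HT cow 8660 at a mean r of 0.48 and with its own at -0.05, over 6 pairs each. Those of cow 8660 correlated with the earlier libraries of cow 8513 at 0.39 and with its own at 0.13. In the other 10 cows the corresponding mean r with their own earlier libraries was 0.08 to 0.61. These correlations are of log2 CPM deviations from the time-point means across loci. Both cows are HT, so no time-point or treatment mean depends on which of the pair a library came from. Fits that follow each cow do depend on it, and counts of cows can. The D14 library of CL cow 7965 correlated with no other sample above 0.19.

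All 5 genes had their highest means at D7 or D14. BUB1B ranged over the 12 cows from 6.17 to 46.5 CPM at D-3, with a median of 15.8. At D3 it ranged from 5.33 to 24.04 with a median of 10.6, and at D7 from 4.81 to 48.9 with a median of 26.6. Its D14 values lay between 11.8 and 39.6 with a median of 22.5, and its D25 values between 7.46 and 42.2 with a median of 17.7. D3 was thus the low point of this checkpoint gene, and 8 of the 12 cows had their lowest BUB1B level there. The D3 and D7 values overlapped. The lowest D7 value, 4.81 CPM in cow 8513, was below all D3 values, and the highest D3 value, 24.04 CPM in cow 8686, was above 5 of the 12 D7 values.

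NEK2, the centrosome kinase, ranged from 0.12 to 14.8 CPM at D-3 with a median of 2.42, and from 1.43 to 9.34 at D3 with a median of 4.31. At D7 it ranged from 3.06 to 17.3 with a median of 9.61, at D14 from 4.19 to 16.1 with a median of 8.45, and at D25 from 3.399 to 17.8 with a median of 6.43. The spread of NEK2 was widest at D-3, where its SD of 5.51 exceeded its mean of 5.16. In 7 of the 12 cows D-3 held the lowest NEK2 level.

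CKS2, the kinase-binding protein, ranged from 0.54 to 19.8 CPM at D-3 with a median of 5.35 and from 3.37 to 13.8 at D3 with a median of 7.20. At D7 it lay between 4.46 and 22.2 with a median of 14.4, and the D14 range of 7.27 to 21.9 had a median of 13.5. At D25 CKS2 lay between 6.59 and 23.7 with a median of 10.7. FOXM1, the transcription factor, had the fewest counts. It ranged from 0 to 10.2 CPM at D-3 with a median of 2.42 and from 1.57 to 5.49 at D3 with a median of 2.5. Its D7 range was 2.58 to 10.3 with a median of 5.92, its D14 range 3.37 to 13.03 with a median of 5.80, and its D25 range 2.44 to 10.7 with a median of 4.65. No cow had its highest FOXM1 level at D-3 or D3, and 11 had it at D7 or D14.

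ARHGAP11A, the RhoA regulator, ranged from 1.54 to 52.7 CPM at D-3 with a median of 7.61, and from 5.10 to 23.96 at D3 with a median of 13.2. At D7 it ranged from 6.96 to 50.3 with a median of 26.1, at D14 from 13.6 to 40.2 with a median of 29.5, and at D25 from 11.1 to 40.9 with a median of 19.8. The 5 genes peaked together in most cows. All 5 were highest at D7 in 4 cows, at D14 in 3 cows and at D25 in 1 cow, while the other 4 cows had their 5 highest levels at more than 1 time point.

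**Figure D1:**
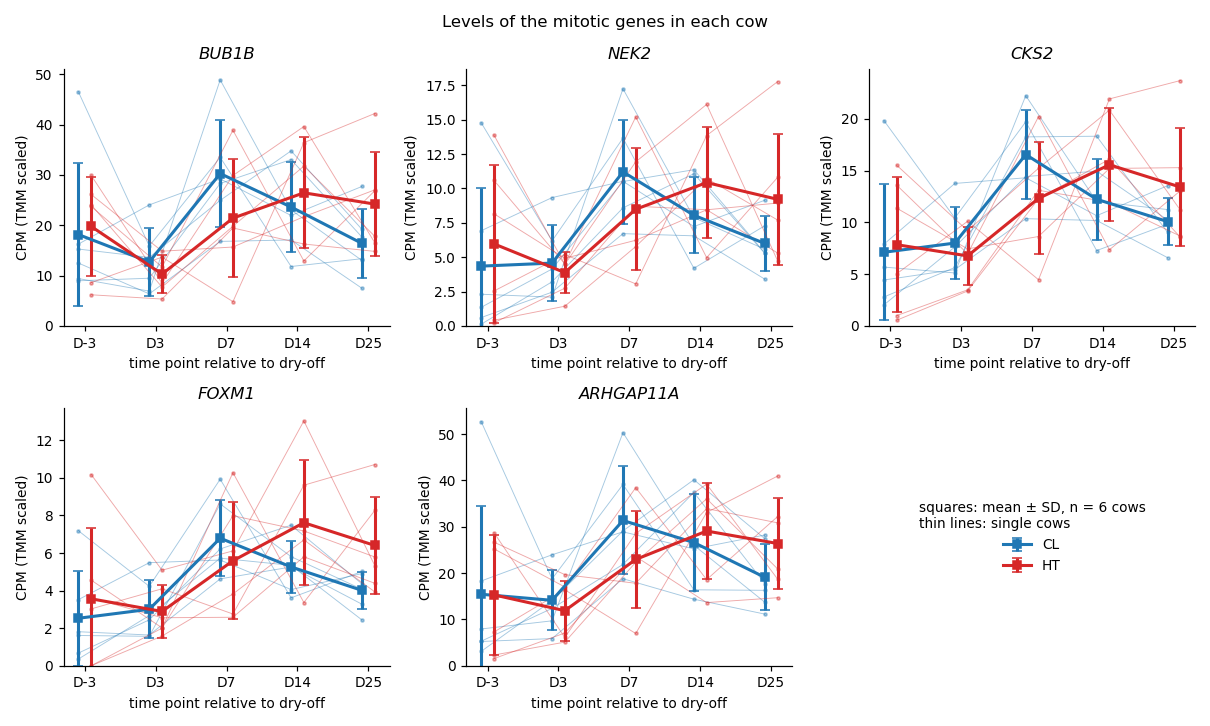
CPM (TMM scaled) of each of the 5 genes (vertical axis) at the 5 time points (horizontal axis); thin lines are single cows, and squares with bars are the mean ± SD of 6 CL (blue) or 6 HT (red) cows, with bars below 0 cut off. BUB1B means of CL cows go from 12.7 at D3 to 30.3 at D7, and HT means reach their highest value, 26.4, at D14.

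The comparison of D7 with D3 asks whether mitotic genes rise in the first week after milking stops. BUB1B was upregulated at D7 by a log2 fold change of 1.17 ± 0.29 (SE), a 2.25-fold difference, with an FDR of 0.0167, and its level was higher at D7 in 11 of 12 cows. The other 4 genes had differences of the same size without passing the threshold. NEK2 was at 1.22 ± 0.41 with an FDR of 0.0837, FOXM1 at 1.07 ± 0.38 with an FDR of 0.11, ARHGAP11A at 1.06 ± 0.35 with an FDR of 0.0842, and CKS2 at 0.97 ± 0.31 with an FDR of 0.0742. Their unadjusted p-values in edgeR ranged up to 0.00689. Hence 1 of 5 genes was called, where 0.625% of all tested loci were called as higher at D7. The median log2 fold change of the 5 genes was 1.07, and that of all tested loci was 0.0011.

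With the cow as a block, which uses the fact that each animal was sampled at both times, all 5 genes were upregulated at D7, with log2 fold changes of 1.07 to 1.34 and FDR of 0.00702 to 0.0375. In that fit 2.09% of all loci were called as higher. All 5 were also called with the block and without cows 8513 and 8660, and by DESeq2. No gene was called when cow 8060, 8564 or 8713 was left out of the fit without the block, and 3 were called without cow 8513. In cow 8513 all 5 genes had lower levels at D7 than at D3. In cow 8668 ARHGAP11A went from 19.7 to 17.8 CPM, and no other cow had a lower level of any of the 5 genes at D7.

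Between D7 and D14 the levels stayed within the error of the comparison, and between D14 and D25 each gene had a slightly lower mean. The log2 fold changes of D14 vs. D7 were -0.09 to 0.06 for the 5 genes, with SE of 0.28 to 0.40. None of the 5 was called in edgeR or DESeq2 and none had an unadjusted p under 0.05, where 0.0% of loci were called and 257 of the 14714 had an unadjusted p under 0.05. For D25 vs. D14 they were -0.31 to -0.24, again with none called by either tool and none with an unadjusted p under 0.05, where 0.0612% of loci were called. In order of mean CPM, D7 and D14 thus came first and differed by less than their error, D25 followed, and D3 came last for all 5 genes. NEK2, CKS2, FOXM1 and ARHGAP11A had lower medians at D-3 than at D3.

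D14 vs. D3 had much the same differences as D7 vs. D3 and shares the D3 samples with it. BUB1B was upregulated by 1.12 ± 0.29, with an FDR of 0.019 and a higher level in 10 of 12 cows. NEK2 was at 1.13 ± 0.41, FOXM1 at 1.12 ± 0.38, ARHGAP11A at 1.096 ± 0.35 and CKS2 at 0.91 ± 0.31, with FDR from 0.0655 to 0.101. This gave 1 of 5 called, where 1.37% of loci were called as higher. With the cow as a block 5 of 5 were called, where 2.72% of loci were. With the block and without cows 8513 and 8660 the count was 2, and without these cows in the fit without the block it was 0. It was also 0 when cow 8647, 8660 or 8713 alone was left out.

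At D25 the 5 genes were still above D3 by 0.67 to 0.85 on the log2 scale, again with the shared D3 samples. None was called, with FDR of 0.0704 to 0.204, where 6.02% of loci were called in either direction. In edgeR 5 of 5 had an unadjusted p under 0.05, and DESeq2 called 1. Blocking by cow, BUB1B was called with a log2 fold change of 0.85 ± 0.28 and an FDR of 0.0348, where 4.8% of loci were called as higher. With the block and without cows 8513 and 8660 it was at 0.71 ± 0.26 with an FDR of 0.0734 and no gene was called. BUB1B, NEK2 and ARHGAP11A were higher at D25 than at D3 in 11 of 12 cows, and CKS2 and FOXM1 in 10.

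**Figure D2:**
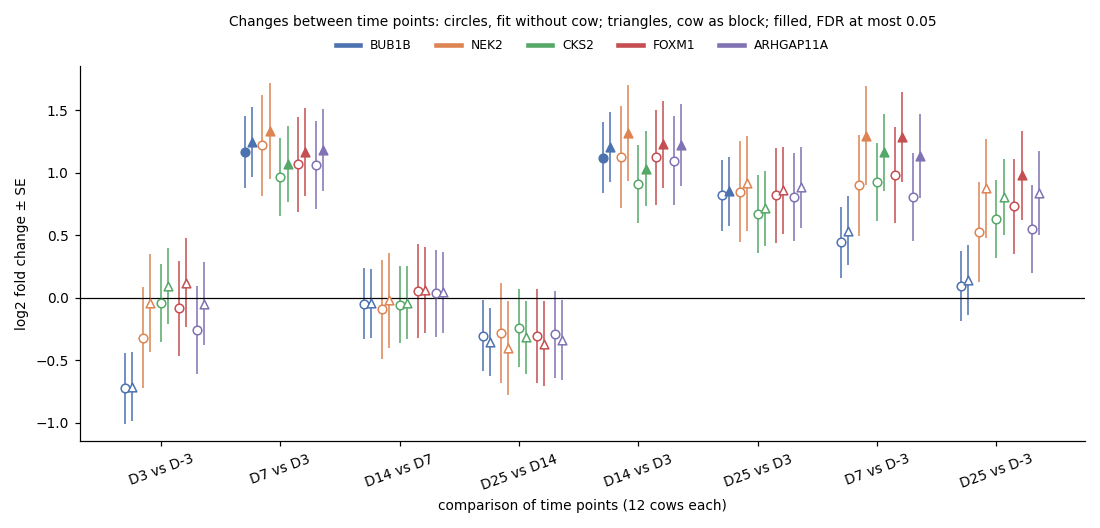
Log2 fold change ± SE (vertical axis) of each of the 5 genes (colours) in 8 comparisons of time points (horizontal axis); circles are from the fit of 60 samples without the cow, triangles from the fit with the cow as a block, and filled symbols have an FDR of at most 0.05. In D7 vs. D3 and D14 vs. D3 all 5 triangles are filled and only the BUB1B circle is.

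Late lactation was the time point at which the 5 genes varied most between cows. Mean CPM at D-3 was 19.0 ± 11.7 for BUB1B, 5.16 ± 5.51 for NEK2, 7.48 ± 6.26 for CKS2, 3.05 ± 3.102 for FOXM1 and 15.4 ± 15.5 for ARHGAP11A (n = 12). The cows divided by their milk protein genes. In the 5 samples with 40.2% to 49.8% of counts on milk genes, NEK2 was at 0.12 to 1.35 CPM, from 1 to 14 counts. In the 7 samples with at most 8.03%, NEK2 was at 2.30 to 14.8 CPM, from 60 to 393 counts. These ranges did not overlap.

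CKS2, ARHGAP11A and FOXM1 were arranged in the same way. CKS2 was at 0.54 to 4.43 CPM in the 5 milk-rich samples and at 5.03 to 19.8 in the other 7. ARHGAP11A was at 1.54 to 5.30 CPM in the former and at 7.28 to 52.7 in the latter. FOXM1 was at 0 to 1.81 and at 1.61 to 10.2 CPM, so that its ranges overlapped slightly. It had 0 counts in cows 8541 and 8713, which with a floor of 3 counts allows up to 0.331 and 0.408 CPM, for counting error only. The milk-rich libraries had TMM factors of 0.300 to 0.419, so that fewer of their counts fell on other genes.

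BUB1B also had a lower median in the milk-rich samples, 12.5 against 23.7 CPM, but its ranges overlapped widely. Its range was 6.17 to 24.1 CPM in the milk-rich samples, from 56 to 177 counts, and 8.59 to 46.5 CPM in the others. Set against the other members within each library, which needs no scaling, BUB1B stood apart in these samples. The ratio of BUB1B counts to the summed counts of NEK2, CKS2, FOXM1 and ARHGAP11A was 0.279 to 0.671 in the 48 samples of the dry period, with a median of 0.43. In the 7 samples of D-3 with few milk gene counts it was 0.438 to 0.536, within that range. In the 5 milk-rich samples it was 0.886 in cow 7965, 1.03 in cow 8564, 2.24 in cow 8541, 2.72 in cow 8647 and 7.38 in cow 8713, all above it. In cow 8713 this ratio rests on 177 counts for BUB1B and 24 for the other 4 genes together. RefSeq lists the lncRNA LOC101905672 and a tRNA gene as overlapping BUB1B and the lncRNA LOC104972569 as overlapping FOXM1 in the assembly ARS-UCD2.0. The counting is not stated to use strand, so reads from such a pair cannot be told apart, and their part in the ratio was not tested.

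**Figure D3:**
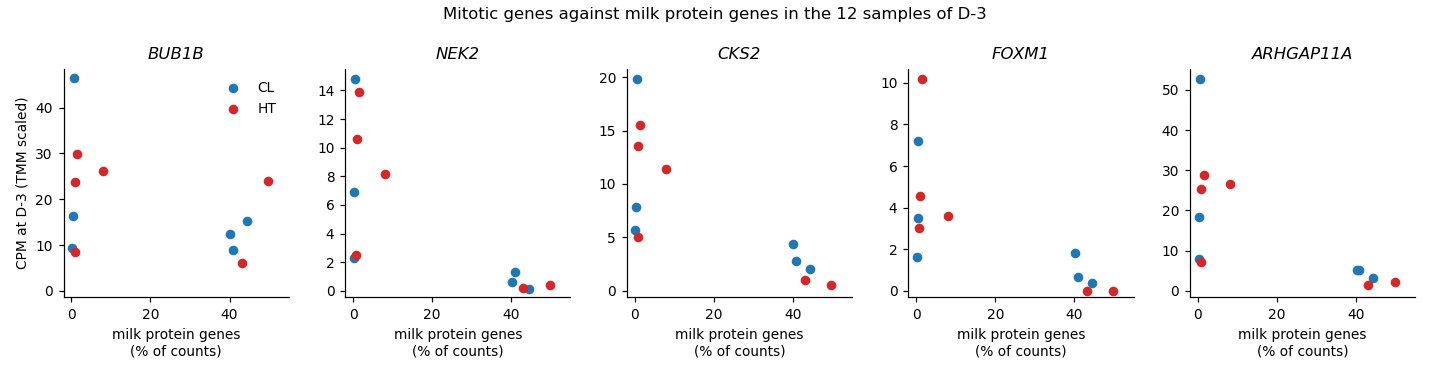
CPM (TMM scaled) of each gene at D-3 (vertical axis) against the share of counts on CSN1S1, CSN2 and LALBA (horizontal axis, %) in the 12 cows, CL in blue and HT in red. The 5 samples above 40% have at most 1.35 CPM of NEK2, while BUB1B reaches 24.1 CPM there.

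This division shaped the comparisons with lactation. D3 vs. D-3 spans both the end of milking and the start of the treatments, and none of the 5 genes was called in edgeR or DESeq2. BUB1B was at -0.72 ± 0.29 with an FDR of 0.0756 and was lower at D3 in 9 of 12 cows. It was the only member with an unadjusted p under 0.05, and it was called when cow 8513 or cow 8686 was left out. The other members were at -0.32 to -0.04. Of all loci 15.1% were called in this comparison. For NEK2, CKS2, FOXM1 and ARHGAP11A the direction depended on the scale of averaging. The fitted fold changes, which follow mean CPM, were below 0, whereas mean log2 CPM was lower at D-3 than at D3, at 1.21 against 1.95 for NEK2, 2.31 against 2.78 for CKS2, 0.57 against 1.47 for FOXM1 and 3.21 against 3.54 for ARHGAP11A. ARHGAP11A was higher at D3 in 8 of 12 cows, NEK2 and CKS2 in 7 and FOXM1 in 6. With the cow as a block CKS2 and FOXM1 were at 0.09 and 0.12, and NEK2 and ARHGAP11A at -0.04 and -0.05. No member was called in that fit, where 21.5% of loci were.

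D7 vs. D-3 set the levels of D7 against lactation and shares the D7 samples with D7 vs. D3, by which the genes were chosen. The log2 fold changes were 0.98 ± 0.38 for FOXM1, 0.93 ± 0.31 for CKS2, 0.90 ± 0.40 for NEK2, 0.80 ± 0.35 for ARHGAP11A and 0.44 ± 0.28 for BUB1B. None was called, with the lowest FDR of 0.0517 for CKS2, where 1.34% of loci were called as higher. In edgeR 4 of the 5 had an unadjusted p under 0.05 and DESeq2 called 2. With the cow as a block NEK2, CKS2, FOXM1 and ARHGAP11A were called, at 1.13 to 1.30, where 3.83% of loci were, and BUB1B was at 0.54 ± 0.28 with an FDR of 0.171. The cows did not share this difference evenly. Among the 5 cows whose D-3 samples were rich in milk gene counts, NEK2, CKS2, FOXM1 and ARHGAP11A were higher at D7 in 5 of 5 and BUB1B in 4 of 5. Among the other 7 cows NEK2 and FOXM1 were higher in 4, and BUB1B, CKS2 and ARHGAP11A in 3. Against D3, in contrast, D7 was higher in 5 of 5 of the first set for each gene and in 5 or 6 of 7 of the second.

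D25 vs. D-3 left the 5 genes at 0.09 to 0.73 on the log2 scale, with none called in edgeR, where 13.1% of loci were called in either direction. DESeq2 called none either, and CKS2 had the one unadjusted p under 0.05. Blocking by cow, FOXM1 was called at 0.98 ± 0.36 with an FDR of 0.0452, where 8.12% of loci were called as higher.

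HT and CL cows were compared to ask whether heat stress changes the course of these genes. No member was called at any time point, over the dry period or in the interaction, where 0.0% of loci were called in each of these comparisons, and DESeq2 called no member either. The highest means nevertheless fell at different time points, a split that single cows did not share evenly. Depending on the gene, 2 to 4 of 6 CL cows were highest at D7 and 2 or 3 at D14. Of 6 HT cows, 2 were highest at D7, 2 or 3 at D14 and 1 or 2 at D25. In CL cows each gene had its highest mean at D7, with 30.3 ± 10.7 CPM for BUB1B, 11.2 ± 3.76 for NEK2, 16.6 ± 4.32 for CKS2, 6.79 ± 2.03 for FOXM1 and 31.4 ± 11.7 for ARHGAP11A. In HT cows each had its highest mean at D14, with 26.4 ± 11.1 CPM for BUB1B, 10.4 ± 4.05 for NEK2, 15.6 ± 5.47 for CKS2, 7.61 ± 3.34 for FOXM1 and 29.1 ± 10.4 for ARHGAP11A (n = 6 each). The groups overlapped at every time point for every gene.

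At D7 the HT means were lower, with log2 fold changes of HT over CL from -0.50 to -0.28. BUB1B ranged from 16.8 to 48.9 CPM in CL with a median of 28.8, and from 4.81 to 38.9 in HT with a median of 19.6. The log2 fold change was -0.50 ± 0.38 with an FDR of 0.959, and no member had an unadjusted p under 0.05, where 672 loci had. The HT values at D7 include cow 8513, in which milk genes took 14.5% of counts, the highest share of any sample of the dry period. CSN1S1, CSN2 and LALBA were at 2.73 to 3.51 in HT over CL at D7, none called, and their part in the differences of the 5 genes was not tested.

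At D14 and D25 the HT means were higher. FOXM1 at D14 ranged from 3.62 to 7.48 CPM in CL with a median of 5.30 and from 3.37 to 13.03 in HT with a median of 6.94, a log2 fold change of 0.54 ± 0.30. The others were at 0.13 to 0.38 at D14. At D25 FOXM1 ranged from 2.44 to 5.02 CPM in CL with a median of 4.21 and from 3.93 to 10.7 in HT with a median of 5.56. Its log2 fold change at D25 was 0.67 ± 0.27 with an FDR of 0.997, and it was the only member with an unadjusted p under 0.05. NEK2 was at 0.62 ± 0.32, BUB1B at 0.56 ± 0.31, ARHGAP11A at 0.46 ± 0.28 and CKS2 at 0.41 ± 0.25. Over all loci, 333 had an unadjusted p under 0.05 at D25. D-3, before the treatments, gave 0.01 to 0.51 with SE of 0.47 for BUB1B and of 0.74 to 1.004 for the others. A difference of 1 on the log2 scale would not have been resolved there for NEK2, FOXM1, ARHGAP11A or CKS2.

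Tests of the difference in course gave no call. The D7 vs. D3 change of HT minus that of CL was -0.22 to -0.17 with SE of 0.57 to 0.82, and the interaction of treatment with the 5 time points had unadjusted p-values of 0.377 to 0.752 for the members in edgeR, with an FDR of 1. D7 vs. D3 was 1.05 to 1.29 in CL and 0.86 to 1.13 in HT, and the 5 genes were higher at D7 in 6 of 6 CL cows and in 4 or 5 of 6 HT cows. From D7 to D14 the fitted changes were -0.48 to -0.24 in CL and 0.30 to 0.44 in HT. The difference between these changes, a comparison added after the means had been seen, was 0.58 to 0.81 with SE of 0.57 to 0.81 and an FDR of 1, where 0.0% of loci were called. Summed over D3 to D25 the 5 genes were at 0.01 to 0.26 in HT over CL with SE of 0.14 to 0.18.

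**Figure D4:**
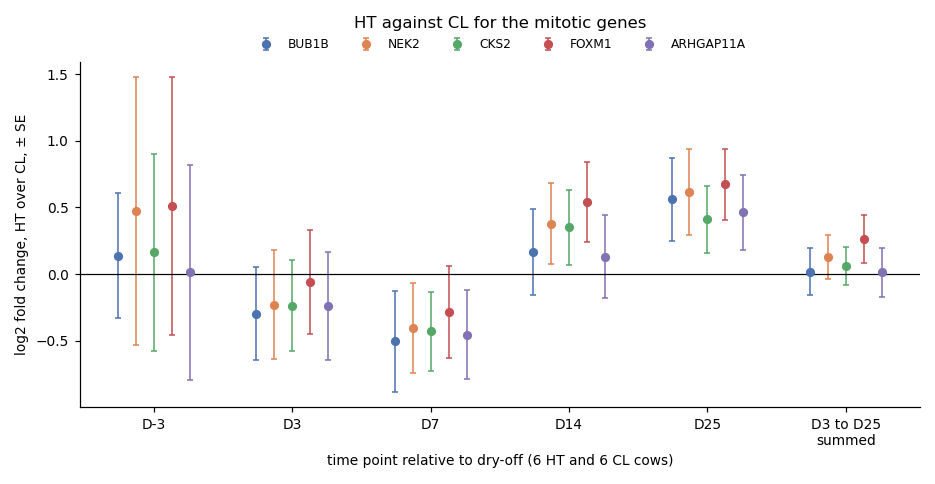
Log2 fold change of HT over CL ± SE (vertical axis) for each gene (colours) at the 5 time points and for counts summed over D3 to D25 (horizontal axis), with 6 cows per treatment. All 5 points lie below 0 at D3 and D7 and above 0 at D14 and D25, and no comparison has an FDR of at most 0.05.

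The 5 genes varied together over the dry period. Pearson's r of log2 CPM over the 48 samples of D3 to D25 was 0.73 between FOXM1 and ARHGAP11A, the lowest pair, and 0.95 between NEK2 and CKS2, the highest. BUB1B was at 0.81 with FOXM1 and at 0.93 to 0.94 with the others. These samples share 12 cows, and both genes of a pair share each library and its scaling. Over all 60 samples the loci most like the mean of the 5 standardized profiles were NUSAP1 at r = 0.98, KIF4A at 0.98, TOP2A and BUB1 at 0.97, HJURP, BIRC5, KIF20A, TPX2 and KIF15 at 0.97, and CENPF at 0.96. They also ranked 1 to 10 among all 14709 other tested loci, whose median r was 0.03. NUSAP1 bundles spindle microtubules, KIF4A, KIF15 and KIF20A are mitotic kinesins, TOP2A untangles DNA, BUB1 and CENPF act at the kinetochore, HJURP loads the centromeric histone, BIRC5 encodes survivin, and TPX2 activates Aurora A on the spindle. After the mean of each treatment and time point was subtracted, 8 of these 10 were again among the first 10 with r of 0.96 to 0.97, and PBK and ASPM took the places of TPX2 and KIF15.

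Other genes of cell division were read from 5 lists. Symbols were paired with a locus only where a gene stood in the part of the supplementary tables held here, which lists genes by their p in D7 vs. D3 or D3 vs. D-3. Of 116 symbols in these lists 70 had a tested locus, 66 of them from the D7 vs. D3 table. Counts in D7 vs. D3 and D3 vs. D-3 therefore describe genes chosen for change. D14 vs. D3 and D25 vs. D3 share the D3 samples with D7 vs. D3, so their counts are not free of this choice. Mean CPM was highest at D7 for 46 of the 70 and at D14 for 16. It was highest at D-3 for ANAPC2, ANAPC5, CDC25A, CENPN, NCAPG and UBE2S and at D3 for ANAPC1 and CDC26. In D7 vs. D3 7 were upregulated and 1 was downregulated, and the median log2 fold change of the 70 was 0.96. With the cow as a block 46 were upregulated and 1 downregulated. Of all loci 0.625% were upregulated without the block and 2.09% with it. In D14 vs. D3 3 of 70 were upregulated, 40 with the block, where 1.37% and 2.72% of all loci were. In D25 vs. D3 1 was upregulated, where 1.4% of loci were, and 1 downregulated. With the block the counts were 5 and 1, where 4.8% of loci were upregulated, so these counts lay near those of all loci. The calls of the 7 genes upregulated in D7 vs. D3 were close to the threshold, and with each cow left out in turn each of them was called in 2 to 5 of the 12 fits.

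Among 26 genes of the spindle, cytokinesis and mitotic chromosomes 4 were upregulated in D7 vs. D3. These were KIF20A, a kinesin of cytokinesis, at 1.32 ± 0.38, CKAP2, a spindle protein, at 1.15 ± 0.33, NUSAP1 at 1.04 ± 0.30 and TPX2 at 1.02 ± 0.28. The proliferation marker MKI67 of the same list was at 0.94 ± 0.33 with an FDR of 0.104, and 0.043 with the block. Among 16 genes of the checkpoint and kinetochore 2 were upregulated, the centromere protein CENPN at 0.99 ± 0.29 and SKA3, which anchors kinetochores to microtubules, at 0.66 ± 0.20. BUB1, the partner kinase of BUB1B in the checkpoint, was at 0.96 ± 0.33 with an FDR of 0.09, and 0.044 with the block. Among 9 mitotic cyclins, kinases and phosphatases none was called in edgeR without the block. CCNB1, the cyclin that starts mitosis, was at 1.22 ± 0.40 with an FDR of 0.082, and 0.037 with the block. Its kinase CDK1 was at 0.69 ± 0.24 with an FDR of 0.104, and 0.065 with the block.

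The 10 genes of DNA replication and the G1/S step had differences of 0.51 to 1.05 with a median of 0.69 and none called in D7 vs. D3, against 5 upregulated with the cow as a block. Cyclin E1 (CCNE1) was upregulated in D25 vs. D3 at 0.54 ± 0.17, and without cows 8513 and 8660 it was at 0.40 ± 0.17 and not called. Of 9 genes of the anaphase-promoting complex and its substrates ESPL1, the separase that splits sister chromatids, was upregulated at 1.07 ± 0.32 in D7 vs. D3, and CDC26, a subunit of the complex, was downregulated at -0.50 ± 0.15. With each cow left out in turn CDC26 was called in 5 of the 12 fits of D7 vs. D3. It was also downregulated in D25 vs. D3 at -0.65 ± 0.15, there in 12 of 12 such fits.

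In D3 vs. D-3 1 of the 70 division genes was upregulated and 6 were downregulated, with the same counts when the cow was a block. These 7 of 70 were no larger a share than the 15.1% of all loci called, or the 21.5% called with the block. The phosphatase CDC25A was downregulated at D3 by -1.49 ± 0.25, CENPN by -1.67 ± 0.30 and the condensin subunit NCAPG by -0.77 ± 0.20. In the anaphase list the complex subunits ANAPC5 and ANAPC2 and the ubiquitin-conjugating enzyme UBE2S were downregulated, at -0.46 ± 0.09, -0.43 ± 0.12 and -0.49 ± 0.14, and ANAPC1 was upregulated at 0.23 ± 0.07. The value of BUB1B, -0.72 ± 0.29, was close to that of NCAPG.

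**Figure D5:**
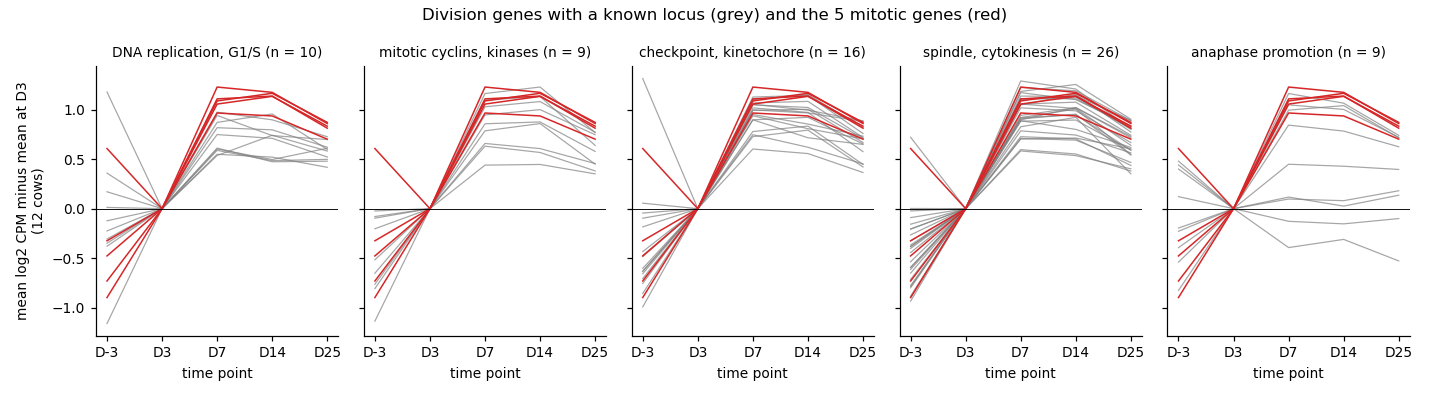
Mean log2 CPM minus the mean at D3 (vertical axis, 12 cows) at the 5 time points (horizontal axis) for 10, 9, 16, 26 and 9 genes of 5 division lists (grey) and, repeated in each panel, the 5 genes (red). On this scale 4 red lines start below 0 at D-3 and BUB1B starts above 0, and all lie above 0 from D7 on.

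Few regulators outside the division machinery had a locus, and these too were listed by their p, so the size of their changes cannot be set against that of the division genes. MYBL2, which works with FOXM1 on mitotic promoters, was upregulated in D7 vs. D3 at 0.65 ± 0.19, and TFDP1, the partner of E2F factors, was at 0.22 ± 0.11 and not called, which were the 2 of 11 MuvB and pocket protein genes with a locus. Of 11 inhibitors of the cell cycle 3 had a locus. CDKN1B, which encodes p27, was downregulated in D7 vs. D3 at -0.27 ± 0.08, while CDKN2C was at 0.58 ± 0.18 and CDKN2D at -0.18 ± 0.17, neither called. With each cow left out in turn MYBL2 was called in 3 and CDKN1B in 4 of the 12 fits of D7 vs. D3. The G1 cyclins CCND1 and CCND2 were at 0.51 ± 0.29 and 0.35 ± 0.16 in D7 vs. D3, neither called. NEK1, the other NIMA-related kinase with a locus, was at -0.29 ± 0.11 and not called.

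Between treatments the 70 division genes went with the members. At D7, 64 of 70 had a lower fitted mean in HT, with a median of -0.33, and at D25, 68 of 70 had a higher one, with a median of 0.45. None was called at either time point, genes measured in the same libraries are not independent of each other, and the median over all tested loci was -0.0025 at D7 and -0.0021 at D25.

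Markers of cell types were also read only where a gene was listed by its p in D7 vs. D3 or D3 vs. D-3. Their changes in these comparisons therefore describe genes chosen for change. The basal and myoepithelial markers KRT5, ACTA2 and MYLK were downregulated in D7 vs. D3 at -1.03 ± 0.31, -1.04 ± 0.28 and -0.53 ± 0.16. With each cow left out in turn they were called in 3, 8 and 4 of the 12 fits. Without cows 8513 and 8660 their FDR was 0.116, 0.0527 and 0.0642, so that none was called. In D25 vs. D3, which shares the D3 samples, KRT5, ACTA2 and MYLK were downregulated at -1.30, -1.31 and -0.76. There each was called in 12 of 12 fits with 1 cow left out and also without cows 8513 and 8660. The luminal keratin KRT19 was at -0.995 ± 0.34 in D7 vs. D3 and not called. In D25 vs. D3 KRT19 was downregulated at -1.24 with an FDR of 0.0192, and in 8 of 12 fits with 1 cow left out. In D3 vs. D-3 KRT5 and ACTA2 were upregulated at 1.01 ± 0.31 and 0.81 ± 0.27. They were called in 10 and 7 of the 12 fits with 1 cow left out. Without cows 8513 and 8660 their FDR was 0.0572 and 0.0629. The adipocyte hormone gene ADIPOQ was at 1.33 ± 0.45 in D7 vs. D3, not called in the fit without the block and called with it. In D14 vs. D3 it was upregulated at 2.27 ± 0.46, which rests on 1 library. Cow 8541 had 313 CPM at D14 and the next highest cow 27.5, and without cow 8541 ADIPOQ was at 0.70 ± 0.30 and not called. The fibroblast proteoglycan DCN was upregulated in D14 vs. D3 at 0.81 ± 0.24, and without the D14 library of cow 7965, which held 5393 CPM, it was at 0.34 ± 0.18 and not called. With the cow as a block DCN was not called either, with an FDR of 0.0666. The endothelial receptor KDR was downregulated in D3 vs. D-3 at -0.95 ± 0.22 and was at 0.29 ± 0.22 in D7 vs. D3. Of 6, 6, 4, 6 and 5 listed markers of basal, luminal, adipocyte, fibroblast and endothelial cells 3, 1, 1, 1 and 1 had a locus, and the 12 leukocyte markers were not analysed here. The part of these markers in the changes of the 5 genes was not tested. Milk genes were downregulated in D3 vs. D-3, at -4.00 ± 1.15 for CSN1S1, -4.65 ± 1.16 for CSN2 and -7.14 ± 1.51 for LALBA.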

How the data were processed

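RNA of 60 mammary biopsies was sequenced by the authors from poly(A) libraries on an Illumina NextSeq, with single-end reads. Per the study's methods and the submitters' processing notes, reads were trimmed with Trim Galore 0.4.1, mapped with TopHat2 2.0.13, assembled with Cufflinks 2.2.1 and counted with HTSeq. The methods name the build bosTau7 and the processing notes UMD3.1. The deposited values are whole-number counts per locus, not normalized by the authors. Each file lists 25223 loci, and no column of another sample was used.

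Symbols came from the part of the study's supplementary tables held here, which pairs 3033 loci. The columns of those tables with the study's own fold changes and p-values were not used. The 5 genes and the gene lists were chosen with earlier results of these data known.

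A locus was tested if 6 or more samples had 1 CPM or more (14714) with TMM factors and the quasi-likelihood F-test of edgeR 4.0.16 under R 4.3.3, with trended dispersions. Time points were compared in a fit of all 60 samples, HT and CL in the 12 samples of each time point, or on counts summed per cow over the dry period, and the interaction in a fit of all 60. Log2 CPM used a prior count of 2. Blocking by cow was an alternative. Same-cow pairs of samples, which the labels define, correlated at a mean r of 0.29 in their deviations from group means (120 pairs) against -0.06 for different cows of a treatment (600 pairs). Other alternatives were DESeq2 1.42.0, tagwise dispersions, RLE factors, library size only, TMM without milk genes, other filters, other sets of samples, treatment as a covariate, a looser threshold, and each cow left out. The fits were tested on simulated counts. Summaries and figures used Python 3.11.15, numpy 2.4.6, pandas 2.3.3 and matplotlib 3.10.9.

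Named besides the 5 genes were MKI67, CDK1, CCNB1 and BUB1, up to 4 called genes per list with the largest change in D7 vs. D3, D3 vs. D-3 or D25 vs. D3, each gene of lists of at most 11, and the 10 loci with a symbol most like the 5 genes. No sequence was printed, because none was held here.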

Additional observations from a re-analysis of the deposited data

Results flagged for a closer look

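Of the 50 sets of 6 values (5 genes in 10 groups of treatment and time point), 3 held a value far from the other 5 by Dixon's criterion, which by chance marks about 1 in 20 sets. All 3 were in the D-3 sample of CL cow 8603, taken before the treatments, where BUB1B was at 46.5 CPM, CKS2 at 19.8 CPM and ARHGAP11A at 52.7 CPM. The same sample also had the highest NEK2 and FOXM1 levels of its group, 14.8 and 7.19 CPM, and milk genes took 0.569% of its counts. Without cow 8603, 2 of the 5 genes were called in D7 vs. D-3, 2 in D14 vs. D3 and 1 in D25 vs. D3.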

How the results depend on the processing

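Which of the 5 genes were called depended on the setting for the comparisons with D3 or D-3 and never for HT against CL. The count for D7 vs. D3, 1, was 5 with the cow as a replicate block, with the block without cows 8513 and 8660, with only the samples of both time points and in DESeq2, 4 with tagwise dispersions and 0 with library size only, and 0 to 3 with 1 cow left out. The count for D14 vs. D3, 1, was 5 with the block, 2 with the block without these cows, 0 without these cows, 5 with only both time points, 3 with tagwise dispersions, 4 in DESeq2, 0 with library size only, and 0 to 2 with 1 cow left out. For D7 vs. D-3, 0 was called, against 4 with either block, 2 without both cows, 2 in DESeq2, 1 with RLE factors, TMM without milk genes, tagwise dispersions or without the D14 sample of cow 7965, and 0 to 2 with 1 cow left out, where cows 8314, 8513, 8603, 8660 and 8668 each raised the count. For D25 vs. D3, 0 was called, against 1 with the block, tagwise dispersions or DESeq2 and 0 to 1 with 1 cow left out, 1 without cow 8603 or 8686. D25 vs. D-3 had 0 and 1 with either block, and D3 vs. D-3 had 0 and 0 to 1 with 1 cow left out. The block changed no other count. Of 1795 fold changes of single genes under other settings, 1627 kept their direction and side of the threshold, 68 passed it newly, 9 no longer did, and 91 that were not called in either case changed sign. No called fold change reversed. With library size only, the median of all loci moved to 0.35 in D3 vs. D-3, 0.41 in D7 vs. D-3, 0.48 in D25 vs. D-3, 0.14 in D25 vs. D3 and -0.14 in HT vs. CL at D7, where D7 vs. D-3 of BUB1B was 0.76. Calls then split into 2217 up and 176 down in D3 vs. D-3 (887 and 1330 with TMM), 12 and 24 in D7 vs. D3 (92 and 338) and 5852 and 185 in D25 vs. D-3 (582 and 1348). The cause of these changes was not tested. FOXM1 had at most 18 counts in the milk-rich D-3 libraries, which limits its values there.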

Other observations

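The loci with a symbol whose log2 CPM ran most against the mean profile of the 5 genes over the 60 samples were TGOLN2 at r = -0.80, BCL6 at -0.80, PTHLH at -0.79, ACAD10 at -0.78 and HPSE at -0.77. BCL6 encodes a transcriptional repressor, PTHLH the parathyroid hormone-like hormone and HPSE heparanase. After the mean of each treatment and time point was subtracted, BCL6, PTHLH and ACAD10 were again among the lowest 5, at -0.80, -0.79 and -0.78, with FAM107B at -0.81 and DUSP4 at -0.79. These genes were named after their values were seen, only loci with a symbol were considered, and the samples share cows and scaling.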
